A study of Mus musculus with 12 samples.

Results

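Nuclear-encoded subunits of the respiratory chain were described in pro-erythroblasts (Pro-E), the first morphologically recognizable erythroid precursor, with regard to genotype and to treatment with apotransferrin (apoTf), the iron-free form of the plasma iron carrier. The rule took every gene symbol that begins as the subunits of complexes I to V do and that reached 1 FPKM (fragments per kilobase of exon, scaled to the reads of the library) in at least 3 libraries. In all, 84 symbols of the 24453 in the table began in this way and 75 passed the filter on low values, among 9650 genes of all kinds that did. Mitochondria make ATP by passing electrons from NADH and succinate along complexes I to IV of the inner membrane to oxygen, and complex V (ATP synthase) uses the proton gradient that results. Complexes I, III, IV and V are built from subunits of both genomes, while every subunit of complex II is nuclear. In erythroblasts these complexes draw on the same iron as haem, since iron-sulfur clusters and haem groups carry the electrons, and the mitochondria are lost as reticulocytes mature.

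Pro-E were sorted from mouse bone marrow into 12 libraries of polyadenylated RNA, each from 2–3 pooled mice, 3 libraries per group. WT mice and β-thalassemic mice, homozygous for the Hbb th1 deletion of an adult β-globin gene, were given either 200 µl of PBS or 10 mg of human apoTf (400 mg/kg per day) intraperitoneally for 20 days, and cells were collected 3 days after the last injection. The labels give the strain as C57BL6 for all libraries and an age of 5 months, while the methods of the study speak of a mixed background and of 3–4 months. The extraction text of the labels also speaks of 0.4 mL of blood removed, the last time 24 h before collection, and it is not known if this applied here. Genotype tags and titles in the labels contradict each other, and libraries were grouped by title. Under this grouping Hbb-bs, an adult β-globin gene, lay between 131 and 172 FPKM in β-thalassemic, between 95.8 and 201 in apoTf-treated β-thalassemic, between 714 and 1784 in WT and between 1091 and 3229 in apoTf-treated WT libraries. All 15 erythroid markers passed the filter, with a summed level of 1712 to 2585 FPKM per library, and none of 10 B cell markers reached 1 FPKM in any library. Markers of neutrophils and monocytes summed to between 1.09 and 52.8 FPKM, highest in apoTf-treated WT replicate 2 and WT replicate 3. Of these 15 markers 6 passed the filter, and Ly6g, Itgam, Csf1r and 3 others were under 1 FPKM everywhere. Early progenitor markers summed to between 44.0 and 111 FPKM, highest in WT replicate 3 and lowest in WT replicate 1. Of these 7 markers 3 passed, and Cd34, Flt3, Meis1 and Spi1 were under 1 FPKM everywhere. Of 10 megakaryocyte markers 3 passed, with sums of 10.1 to 21.4 FPKM, highest in WT replicate 1. Of 10 T and NK cell markers 2 passed, with sums of 3.67 to 7.47 FPKM. Of 10 macrophage markers 1 passed, as did 1 of 10 endothelial and stromal markers. The part of other cells in any result was not tested. Library totals, read from the steps between FPKM values, were about 33.5 to 51.7 M reads. In bulk RNA of sorted cells, fewer cells that express a gene and less RNA per cell cannot be told apart.

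WT replicate 1 stood apart and bears on every comparison that uses untreated WT mice. It also enters the spread per gene, which all comparisons share in the fit of all libraries. Its median Spearman correlation with the other libraries across genes was 0.867, against 0.982 to 0.990 for the other 11 libraries, and the ribosomal RNA gene Rn45s took 14.7% of its summed FPKM, against 0.775% to 2.91% elsewhere. In this library 22 of the 75 members lay more than 2-fold below the median of the others and none more than 2-fold above it. Of all 9650 genes tested, 2334 lay more than 2-fold below and 342 more than 2-fold above. The share beyond 2-fold in either direction was 29.3% of members and 27.7% of all genes. On the scale used, log2(FPKM + 0.5), no member deviated by more than 2-fold in any of the other 11 libraries, where 0.46% to 0.98% of all genes did. The added 0.5 understates deviations of low genes such as Cox7c. That gene was at 0.536 FPKM in β-thalassemic replicate 3, against a mean of 1.43 FPKM over the 12 libraries. Results that rest on untreated WT mice are therefore given with and without this library.

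The 75 genes comprised 35 of 35 matched subunits of complex I (NADH dehydrogenase), 4 of 4 of complex II (succinate dehydrogenase), 8 of 8 of complex III (cytochrome bc1), 12 of 18 of complex IV (cytochrome c oxidase) and 13 of 15 of complex V. Ndufa4 was counted with complex IV, to which its protein belongs despite the name. The last 3 match by symbol only, namely Atp5s, Atp5sl and Cox7a2l, the product of which helps to assemble supercomplexes. None of the 13 subunits encoded by mitochondrial DNA is in the table, so the nuclear share alone was measured. Subunits were abundant, and 69 of the 75 members averaged 10 FPKM or more. The median of the mean levels was 45.2 FPKM in complex I, 67.0 in complex II, 92.5 in complex III, 81.3 in complex IV and 109 in complex V, against 8.95 FPKM over all genes tested. All 75 members together took 2.68% to 3.01% of the summed FPKM in the 11 other libraries and 2.09% in WT replicate 1. With Rn45s left out of the sum, the share was 2.71% to 3.05% in the 11 other libraries and 2.45% in WT replicate 1.

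**Figure D1:**
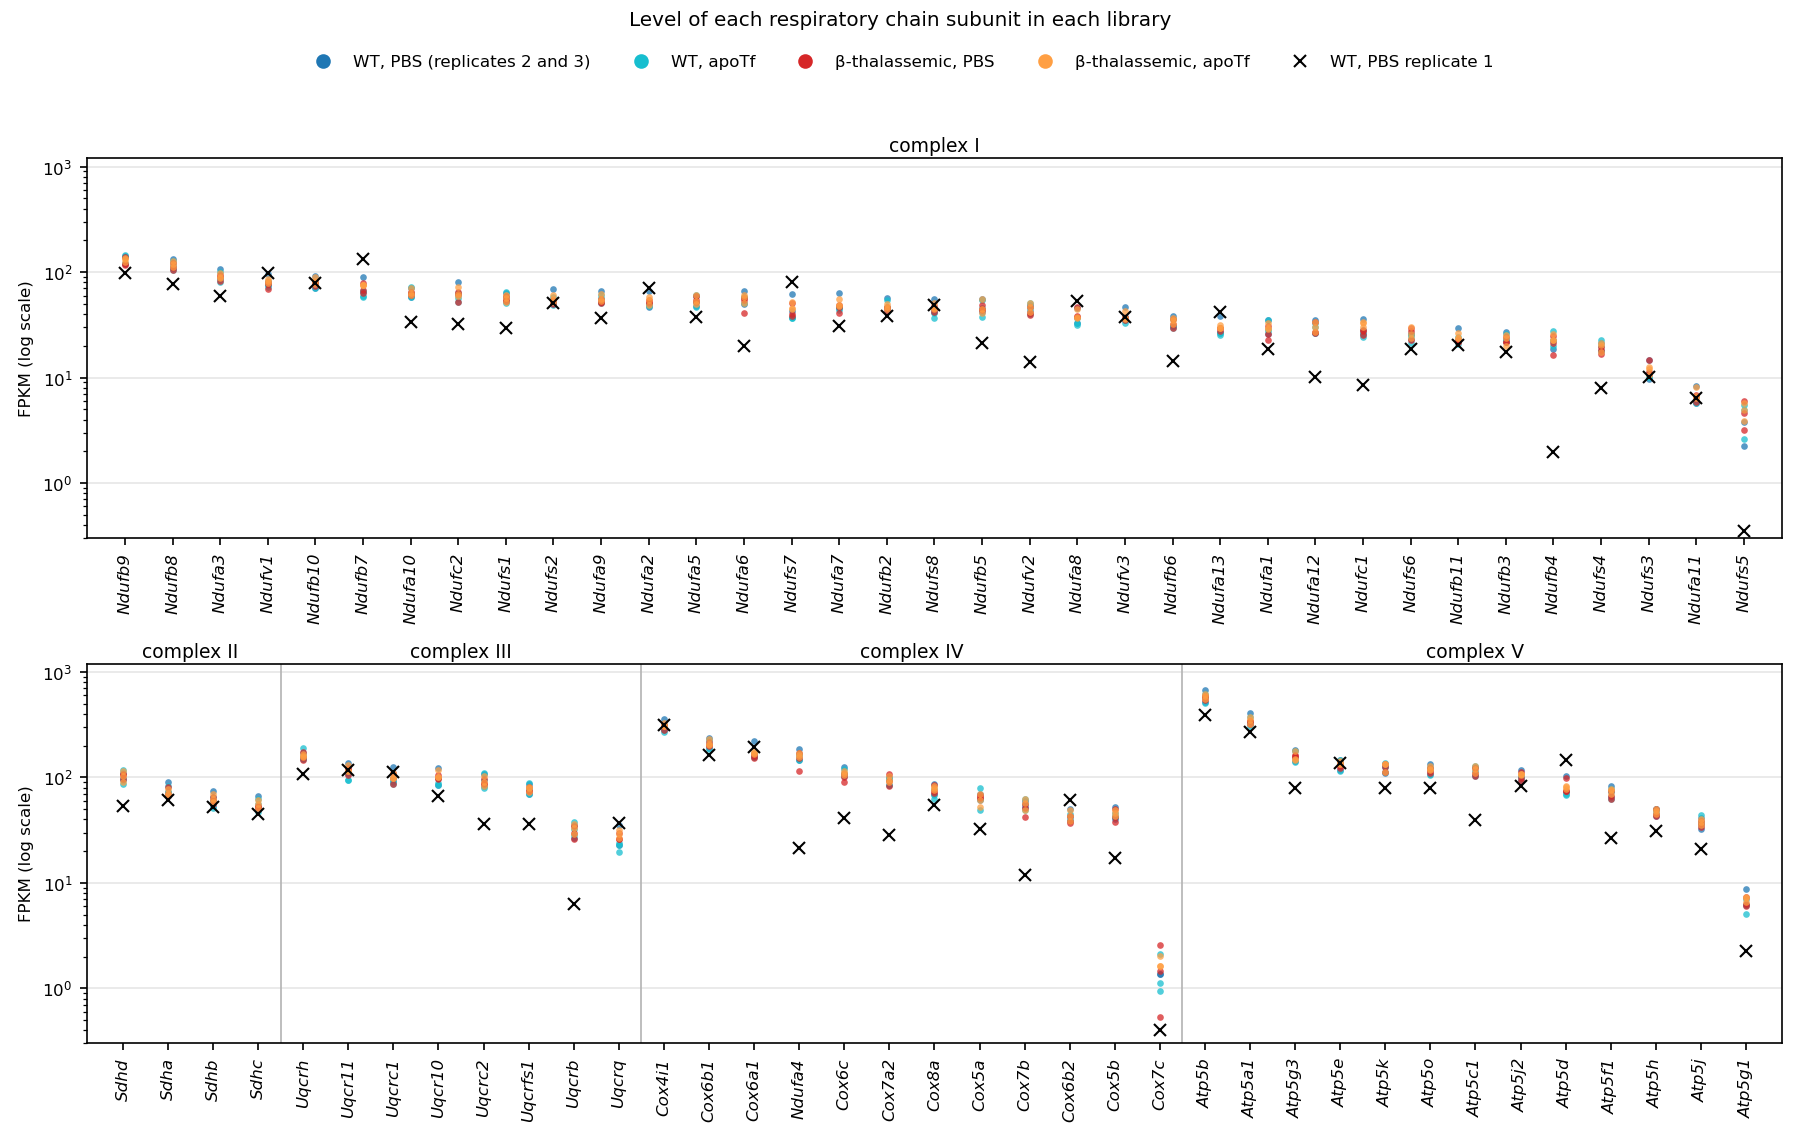
FPKM (log scale) of each of the 72 subunits that passed the filter, ordered within complexes I to V by mean level, with 1 point per library coloured by group and WT replicate 1 drawn as a cross. The cross lies more than 2-fold below the median of the other libraries in 9 genes of complex I, 6 of complex IV and 3 each of complexes III and V, farthest in Ndufb4 and Ndufa4, and it lies above them in Ndufb7 and Ndufs7.

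Within complex V, the catalytic β subunit gene Atp5b was the most abundant of all members, with a mean of 561 FPKM over the 12 libraries, and Atp5a1, which encodes the α subunit beside it in the F1 head, followed at 337 FPKM. The highest member of complex IV was Cox4i1, a regulatory subunit of the core assembly, at 305 FPKM. Uqcrh, which encodes the hinge protein that contacts cytochrome c1, led complex III at 157 FPKM. Ndufb9 led complex I at 128 FPKM and Sdhd, a membrane anchor with a part in haem binding, led complex II at 98.3 FPKM. The lowest subunits that passed were Cox7c at 1.43 FPKM, Ndufs5 at 3.97 FPKM, Atp5g1 at 6.35 FPKM and Ndufa11 at 6.56 FPKM. In complex II the range from Sdhc to Sdhd was only 54.4 to 98.3 FPKM, and in complex III the lowest was Uqcrq at 27.6 FPKM. Leaving WT replicate 1 aside, the highest library exceeded the lowest by a median of 1.39-fold over the 72 subunits, against 1.48-fold over all genes tested. Across all 12 libraries the most variable member of each complex was Ndufb4, Sdhd, Uqcrb, Ndufa4 and Atp5c1, and the least variable was Ndufb10, Sdha, Uqcrc1, Cox4i1 and Atp5e, the SD of log2 levels ranging from 0.11 for Cox4i1 to 0.94 for Ndufb4.

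The levels of the complexes, as the mean of log2(FPKM + 0.5) over their members in each library, lay close together between groups. For complex I this mean was 5.14 ± 0.40 (SD, n = 3) in WT, 5.25 ± 0.12 in apoTf-treated WT, 5.27 ± 0.08 in β-thalassemic and 5.35 ± 0.11 in apoTf-treated β-thalassemic Pro-E, and 5.35 in WT replicates 2 and 3. For complex IV, the terminal oxidase, it was 5.87 ± 0.60, 6.12 ± 0.08, 6.10 ± 0.15 and 6.20 ± 0.10 in the same order, and 6.20 in WT replicates 2 and 3. Complexes II, III and V had group means between 6.06 and 6.17, 6.07 and 6.30, and 6.38 and 6.61. In all 5 complexes the WT group had the lowest mean and the widest SD, and the mean of WT replicates 2 and 3 was higher than that of untreated β-thalassemic Pro-E.

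Complex II, which links the TCA cycle to the chain, is short enough to give in full. Sdha, the flavoprotein that oxidizes succinate, was at 61.2, 72.2 and 90.8 FPKM in WT, 83.7, 72.3 and 66.4 in apoTf-treated WT, 69.1, 67.2 and 81.4 in β-thalassemic and 77.2, 71.1 and 67.5 in apoTf-treated β-thalassemic cells. Sdhb, the iron-sulfur protein, was at 52.3, 53.7 and 74.1 FPKM in WT, 65.4, 60.0 and 51.4 in apoTf-treated WT, 55.5, 60.9 and 64.6 in β-thalassemic and 70.3, 62.4 and 57.9 in apoTf-treated β-thalassemic cells. In both genes the groups overlapped. The membrane anchors that bind ubiquinone are encoded by Sdhc and Sdhd. Sdhc was at 44.7, 51.0 and 66.4 FPKM in WT, 61.9, 56.2 and 47.3 in apoTf-treated WT, 51.3, 52.5 and 53.4 in β-thalassemic and 61.0, 55.8 and 51.2 in apoTf-treated β-thalassemic cells. Sdhd was at 53.7, 93.7 and 110.2 FPKM in WT, 118, 99.7 and 86.0 in apoTf-treated WT, 96.5, 106 and 106 in β-thalassemic and 116, 103 and 90.4 in apoTf-treated β-thalassemic cells. Sdhd was lowest in WT replicate 1, and its other 11 libraries overlapped between groups.

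Several subunit genes have near-identical copies elsewhere in the mouse genome, and only reads with a single alignment were kept. Of the 80 subunit genes, 13 shared 20% or more of the 50-base stretches of their transcript with another gene, and 5 of these 13 averaged under 10 FPKM. Of the 46 that shared none, 6 averaged under 10 FPKM, all of them tissue isoforms that did not pass the filter. Every 50-base stretch of the coding sequences of Atp5l, Atp5g2, Ndufb4 and Cox7c recurs in another gene, as do 99.7% of those of Atp5g1 and 72.1% of those of Ndufs5. Atp5l, a subunit of the membrane part of ATP synthase, was at 0.117 to 0.724 FPKM and shares its transcript with 13 genes, of which 12 are pseudogenes. Ndufb4, whose coding sequence is shared throughout, averaged 20.6 FPKM. The part of shared sequence in these levels was not tested, and the read length is not given in the sources used here. The first 60 coding bases (GENCODE transcripts on GRCm38, start codon in capitals) are shown for Cox7c, whose whole coding sequence recurs elsewhere, and for Atp5g3, of which no 50-base stretch does.
Cox7c: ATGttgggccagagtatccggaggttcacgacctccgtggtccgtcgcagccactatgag
Atp5g3: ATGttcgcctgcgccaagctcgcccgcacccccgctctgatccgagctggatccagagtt

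Subunits with tissue isoforms were represented in Pro-E by the form found in most tissues. Cox4i1 averaged 305 FPKM while Cox4i2, the lung and hypoxia form, was at most at 0.031 FPKM. Cox6a1 averaged 171 FPKM and its heart and muscle counterpart Cox6a2 was listed at 0 in all 12 libraries. Cox7a2 averaged 88.9 FPKM and made 96.4% to 99.8% of the sum of Cox7a1 and Cox7a2, the former being the heart and muscle form. Likewise Cox8a averaged 73.7 FPKM, against 0.229 FPKM for Cox8b and 0 in every library for Cox8c. Cox7b2, the testis relative of Cox7b, was at most at 0.042 FPKM. Ndufa4 averaged 146 FPKM and its hypoxia-induced relative Ndufa4l2 averaged 0.133 FPKM. An exception was Cox6b2, known as the testis form of subunit VIb, which averaged 43.7 FPKM beside 206 FPKM for Cox6b1. The genes share no 50-base stretch and no other gene's exon overlaps either of them. Cox6b2 was at 60.7, 42.5 and 49.7 FPKM in WT, 44.5, 39.8 and 38.9 in apoTf-treated WT, 38.5, 37.1 and 42.6 in β-thalassemic and 49.4, 38.7 and 42.6 in apoTf-treated β-thalassemic cells. Its share of the sum of both forms was 20.8% ± 5.39 (SD, n = 3) in WT, 16.6% ± 0.551 in apoTf-treated WT, 16.1% ± 1.55 in β-thalassemic and 16.9% ± 1.14 in apoTf-treated β-thalassemic Pro-E, and it was highest, at 27.0%, in WT replicate 1. Among the 3 genes that encode the same mature c subunit of ATP synthase, Atp5g3 made 94.9% to 96.9% of the summed FPKM, with Atp5g1 at 2.25 to 8.78 FPKM and Atp5g2 at 0.265 to 0.664 FPKM, both of which share sequence with other genes as above.

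**Figure D2:**
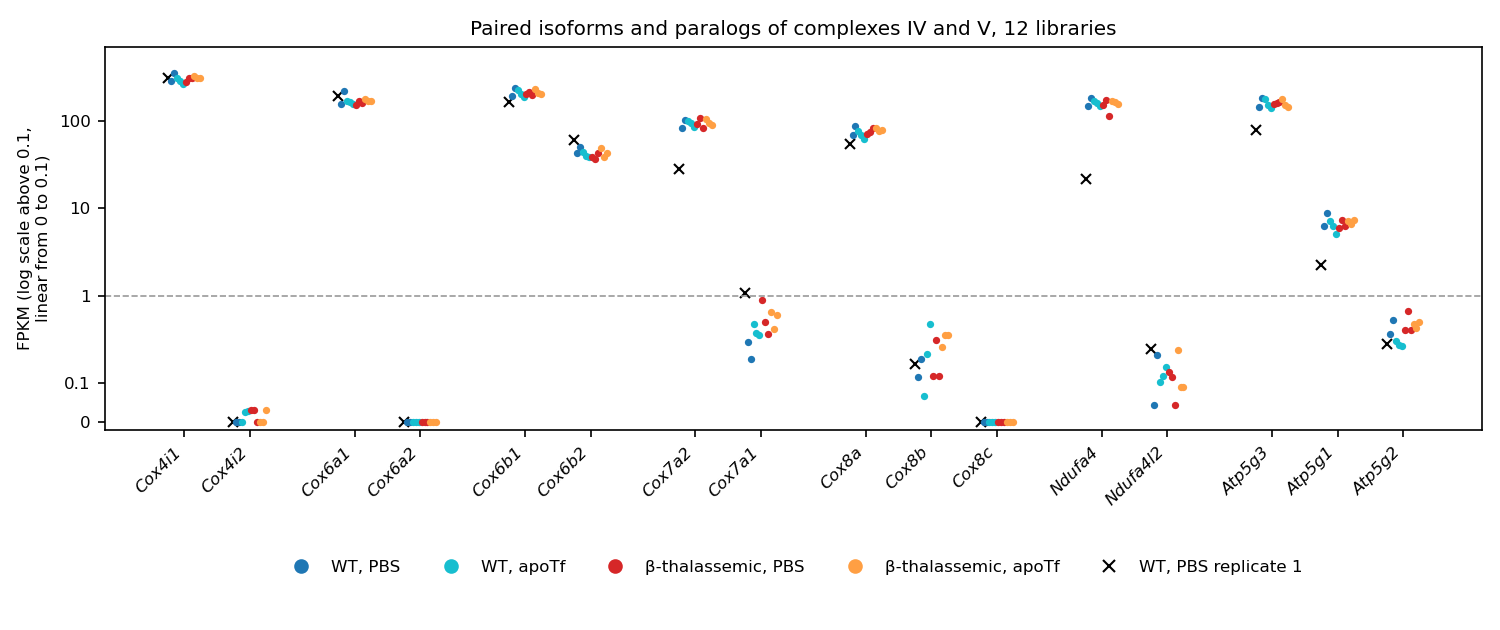
FPKM of paired isoforms and paralogs in 12 libraries, on a scale that is logarithmic above 0.1 and linear below it, with the filter at 1 FPKM as a dashed line. Of the less abundant partners, Cox6b2 at 37.1 to 60.7 FPKM and Atp5g1 at 2.25 to 8.78 FPKM lie above that line in all 12 libraries, and Cox7a1 crosses it in WT replicate 1 alone, at 1.07 FPKM.

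Members that were low in WT replicate 1 tended to have transcripts of lower GC content. Over the 75 members, the deviation of this library from the median of the other 11 correlated with the GC content of the transcript at a Spearman rho of 0.69, and at 0.82 over 9577 genes with an annotated transcript (a description across genes of 1 library, which are not independent). Of the 25 members with the lowest GC content (39.0% to 49.2%), all lay below the median of the other libraries, with a median log2 deviation of −1.12. The median was −0.55 in the middle 25 and 0.03 in the 25 with the highest GC content (54.6% to 61.1%). By complex, 9 of 35 members of complex I, 0 of 4 of complex II, 3 of 8 of complex III, 6 of 12 of complex IV and 3 of 13 of complex V were more than 2-fold low. So were 2334 of the 9650 genes tested. Trends on GC content were present in other libraries too, in either direction. Over the members rho ran from −0.68 in apoTf-treated WT replicate 2 to 0.54 in β-thalassemic replicate 3. Over all genes with an annotated transcript it was −0.44 and 0.48 in the same libraries. The deviations themselves were smaller, and no member was beyond 2-fold on log2(FPKM + 0.5) in any library other than WT replicate 1.

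The first 60 coding bases (start codon in capitals) are given for 3 members that were low in WT replicate 1 and 3 that were high in it. The coding sequences of the first 3 have a GC content of 42.9% to 51.0% and those of the last 3 of 60.9% to 61.7%. The 60 bases shown have a GC content of 61.7%, 55% and 53.3% in the first 3. In the last 3 it is 70%, 68.3% and 68.3%. Ndufb4, the farthest below the other libraries, has a transcript of 52.2% GC and is among the middle 25 members.
Ndufb4: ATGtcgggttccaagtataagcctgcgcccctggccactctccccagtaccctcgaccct
Ndufa4: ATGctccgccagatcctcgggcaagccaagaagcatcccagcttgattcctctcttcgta
Uqcrb: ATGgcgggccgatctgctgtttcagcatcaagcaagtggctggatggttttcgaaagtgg
Ndufb7: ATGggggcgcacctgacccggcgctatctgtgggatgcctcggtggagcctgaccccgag
Ndufs7: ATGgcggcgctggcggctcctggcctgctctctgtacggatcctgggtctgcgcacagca
Atp5d: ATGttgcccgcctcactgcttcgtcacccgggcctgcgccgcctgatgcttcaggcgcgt

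Ndufa4, on chromosome 6 of GRCm38 from 11900292 to 11907497, was at 21.5, 146 and 184 FPKM in WT, 167, 160.2 and 146 in apoTf-treated WT, 151, 172 and 114 in β-thalassemic and 170.4, 163 and 155 in apoTf-treated β-thalassemic cells. Ndufb4, a membrane arm subunit of complex I on chromosome 16 from 37647170 to 37654453, was at 1.98, 18.7 and 22.5 FPKM in WT, 27.7, 22.3 and 20.1 in apoTf-treated WT, 21.4, 24.6 and 16.3 in β-thalassemic and 26.2, 22.6 and 22.7 in apoTf-treated β-thalassemic cells. In both genes WT replicate 1 was the lowest library by far and the other 11 libraries overlapped between groups. Ndufb7, a subunit on the intermembrane side of complex I on chromosome 8 from 83566671 to 83571626, was at 134, 64.7 and 89.5 FPKM in WT, 58.7, 59.6 and 66.1 in apoTf-treated WT, 63.8, 67.8 and 78.1 in β-thalassemic and 75.3, 75.9 and 74.7 in apoTf-treated β-thalassemic cells. Here WT replicate 1 was the highest library and WT replicate 3 the next, so that the ratio of Ndufb7 to Ndufb4 was 67.8 in WT replicate 1 and 2.12 to 4.79 in the others.

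**Figure D3:**
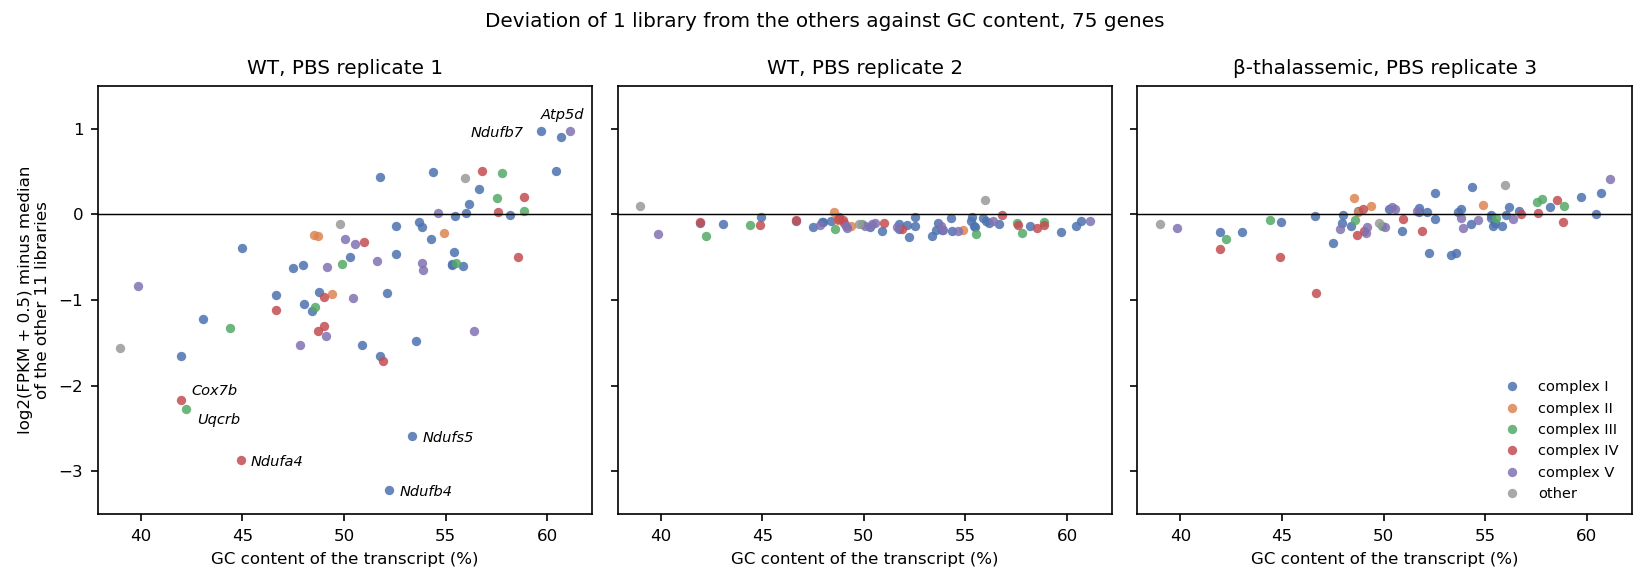
Deviation of 1 library from the median of the other 11 on log2(FPKM + 0.5), against the GC content of the transcript in percent, for the 75 members coloured by complex, in WT replicate 1, WT replicate 2 and β-thalassemic replicate 3. The points of WT replicate 1 run from −3.21 for Ndufb4 to 0.98 for Ndufb7, while those of the other panels stay within 2-fold of 0.

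Differences between groups were tested with limma on log2(FPKM + 0.5) over all 9650 genes, with p values adjusted by the Benjamini-Hochberg method within each comparison, and a log2 fold change here is on that scale. Comparing β-thalassemic with WT Pro-E addresses whether the respiratory chain transcripts differ by genotype at this stage. No member differed at an adjusted p under 0.05, where 0.259% of all genes did, and 3 of 75 had an unadjusted p under 0.05, against 7.66% of all genes. The 3 were Ndufs5, Ndufs7 and Cox6b2. In no member were the 3 libraries of each group without overlap, against 6.92% of all genes. Median log2 fold changes were 0.08 in complex I, −0.002 in complex II, 0.17 in complex III, 0.31 in complex IV and 0.18 in complex V, and 0.08 over all genes tested. Without WT replicate 1 the medians were −0.11, −0.11, −0.05, −0.09 and −0.05, and −0.06 over all genes. The number of members above 0 was 50 of 75 with all libraries and 10 of 75 without WT replicate 1, beside 59.9% and 31.9% of all genes, so that the majority of members and of all genes changed sides without that 1 library. No member passed the test without it either (smallest adjusted p by limma 0.64), while 0.321% of all genes did. With WT replicate 1 left out and each library's trend on GC content removed, 37 of 75 members were above 0 and the median was −0.001.

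The estimates bounded how large a difference could be. Over the 75 members the 95% interval lay within 2-fold in both directions for 58 with all libraries and for 74 without WT replicate 1, and within 1.5-fold for 36 and 71. The largest fold change of complex I belonged to Ndufs5, a subunit of the intermembrane side that shares sequence with a pseudogene. It was at 0.353, 3.82 and 2.24 FPKM in WT, 4.88, 5.48 and 2.61 in apoTf-treated WT, 4.63, 5.99 and 3.18 in β-thalassemic and 4.93, 5.69 and 3.91 in apoTf-treated β-thalassemic cells. Libraries of the groups overlapped, and the log2 fold change of 1.20 (SE 0.48, adjusted p = 0.528 by limma) was 0.53 without WT replicate 1. In complexes II to V the largest were Sdhd at 0.32, Uqcrb at 0.69, Ndufa4 at 0.77 and Atp5c1 at 0.47, with adjusted p values of 0.528 to 0.529 by limma. Without WT replicate 1 they became 0.02, −0.05, −0.19 and −0.04.

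**Figure D4:**
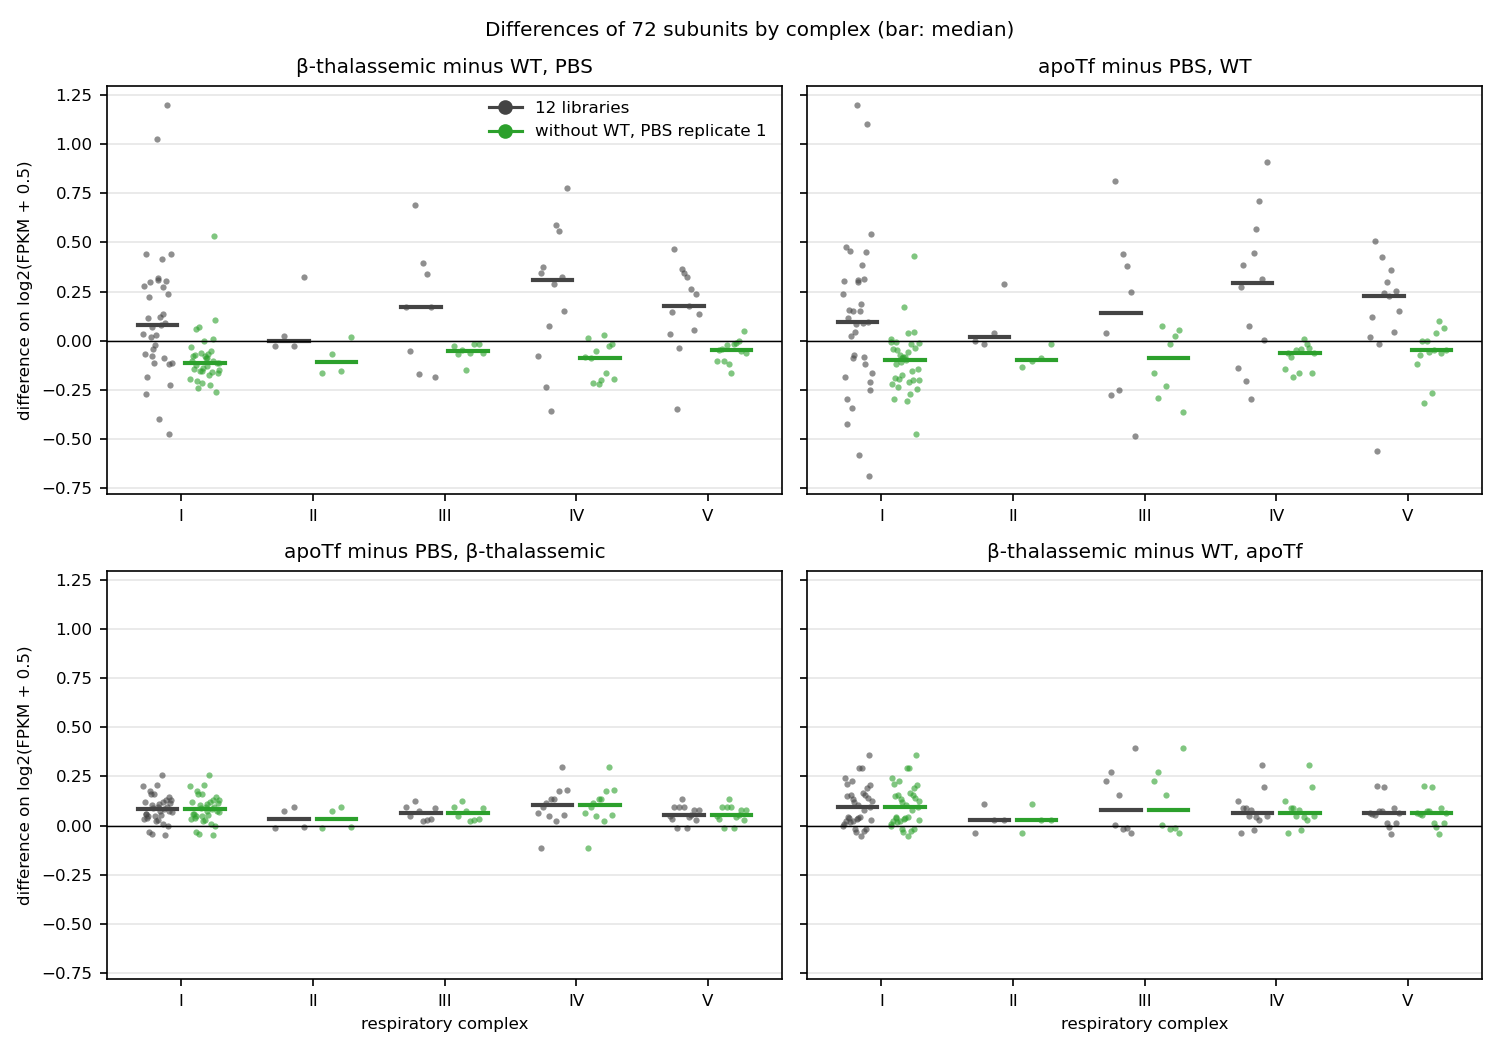
Differences on log2(FPKM + 0.5) of the 72 subunits by complex in 4 comparisons, with all 12 libraries in grey and without WT replicate 1 in green, where 1 point is 1 gene and the bar is the median of the complex. In both comparisons with untreated WT mice the medians of complexes III to V lie above 0 in grey and below 0 in green, whereas the points of the lower panels are the same in both colours and lie within 0.4 of 0.

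Setting apoTf-treated beside untreated β-thalassemic Pro-E asks whether the treatment changes these transcripts, and WT libraries enter it only through the shared spread. No member differed at an adjusted p under 0.05 by limma (3 of all 9650 genes did, 0.0311%) and none had an unadjusted p under 0.05 (1.43% of all genes). The log2 fold changes of the members were small, from −0.11 to 0.30, with medians of 0.08 in complex I, 0.03 in complex II, 0.06 in complex III, 0.11 in complex IV and 0.05 in complex V. Of the 75, 66 were above 0, as were 59.4% of all genes tested, whose median was 0.03. In 4 members every apoTf-treated library lay above every untreated one, namely Cox6a1, Cox7a2l, Ndufb11 and Ndufc1, which is 5.33% of members against 6.76% of all genes. Ndufc1, a small membrane subunit of complex I on chromosome 3 from 51404677 to 51408988, was at 8.57, 25.8 and 35.8 FPKM in WT, 28.0, 26.7 and 24.3 in apoTf-treated WT, 25.4, 27.4 and 28.0 in β-thalassemic and 33.8, 32.8 and 30.4 in apoTf-treated β-thalassemic cells. The increment of 0.26 on the log2 scale was the largest in complex I (SE 0.37, 95% interval −0.55 to 1.07, adjusted p = 1.00 by limma). The SE shrank to 0.12 when WT replicate 1 was left out of the shared spread, and the unadjusted p was then 0.047, the only one of 75 under 0.05 (3.88% of all genes). Ndufb11, whose human ortholog is mutated in a congenital sideroblastic anemia and which is named here after its values were seen, was at 20.6, 22.2 and 29.3 FPKM in WT, 24.3, 22.6 and 20.8 in apoTf-treated WT, 21.6, 22.5 and 21.8 in β-thalassemic and 26.3, 23.5 and 23.9 in apoTf-treated β-thalassemic cells. The apoTf-treated libraries were the higher ones, by 0.16 on the log2 scale (SE 0.15, adjusted p = 1.00 by limma).

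In the other complexes the largest log2 fold changes after apoTf were those of Sdhc at 0.09, Uqcrb at 0.12, Cox7c at 0.30 and Atp5f1, which encodes the b subunit of the peripheral stalk, at 0.13. Cox7c, at 0.536 to 2.57 FPKM in β-thalassemic libraries, had the widest interval of these, −0.55 to 1.15. Without WT replicate 1 in the fit, the 95% interval lay within 1.5-fold for 73 of the 75 members. The most abundant member, Atp5b, on chromosome 10 from 128083273 to 128090391, was at 394, 521 and 667 FPKM in WT, 619, 563 and 505 in apoTf-treated WT, 545, 589 and 577 in β-thalassemic and 618, 584 and 549 in apoTf-treated β-thalassemic cells. The spread between replicates of Atp5b within groups covered the differences between them.

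ApoTf in WT Pro-E gave the lowest unadjusted p values, and all 6 of the members under 0.05 (against 10.2% of all genes) had WT replicate 1 as their highest or lowest library of all 12. Without WT replicate 1, 4 of 75 members still had an unadjusted p under 0.05 by limma, namely Ndufs7, Ndufa13, Uqcrq and Ndufb7, beside 448 of 9650 genes. No member and no gene at all (0%) passed the adjusted threshold by limma, with or without that library. Ndufs7, which holds the last iron-sulfur cluster before ubiquinone in complex I and lies on chromosome 10 from 80249121 to 80256794, was at 80.2, 42.6 and 62.1 FPKM in WT, 37.0, 36.6 and 37.2 in apoTf-treated WT, 38.6, 40.2 and 50.7 in β-thalassemic and 52.0, 45.9 and 44.9 in apoTf-treated β-thalassemic cells. All 3 apoTf-treated WT libraries lay close together and below the 3 untreated ones. The difference was −0.69 on the log2 scale (SE 0.20, 95% interval −1.13 to −0.24, unadjusted p = 0.00566, adjusted p = 0.41 by limma). Without WT replicate 1 it was −0.47 (adjusted p = 0.998), and with the trend on GC content also removed it was −0.19.

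Ndufb7, Ndufa13, Uqcrq and Atp5d, the last encoding the δ subunit of the F1 stalk, had log2 fold changes of −0.58, −0.42, −0.48 and −0.56 after apoTf in WT Pro-E, and Ndufs5 of 1.10, each with an adjusted p of 0.41 by limma. Uqcrq, a small subunit of complex III on chromosome 11 from 53427922 to 53430831, was at 36.8, 22.9 and 35.3 FPKM in WT, 23.6, 19.6 and 23.1 in apoTf-treated WT, 26.2, 26.1 and 29.7 in β-thalassemic and 31.8, 26.8 and 28.9 in apoTf-treated β-thalassemic cells. In Uqcrq WT replicate 2 lay among the apoTf-treated WT libraries. Only Ndufs7, Ndufa13 and Atp5d had no overlap between the groups, 4% of members against 8.29% of all genes in this direction, and all 3 are among the 25 members with the highest GC content. When WT replicate 2 was left out in place of replicate 1, Ndufs7, Ndufb7, Ndufa13, Uqcrq and Atp5d passed the test as lower after apoTf (adjusted p of 0.0404 to 0.0416 by limma), as did 4.65% of all genes. That call thus rested on WT replicates 1 and 3. The medians by complex were 0.09, 0.02, 0.14, 0.29 and 0.23 for complexes I to V with all libraries and −0.10, −0.10, −0.09, −0.06 and −0.05 without WT replicate 1, against 0.10 and −0.06 over all genes tested.

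**Figure D5:**
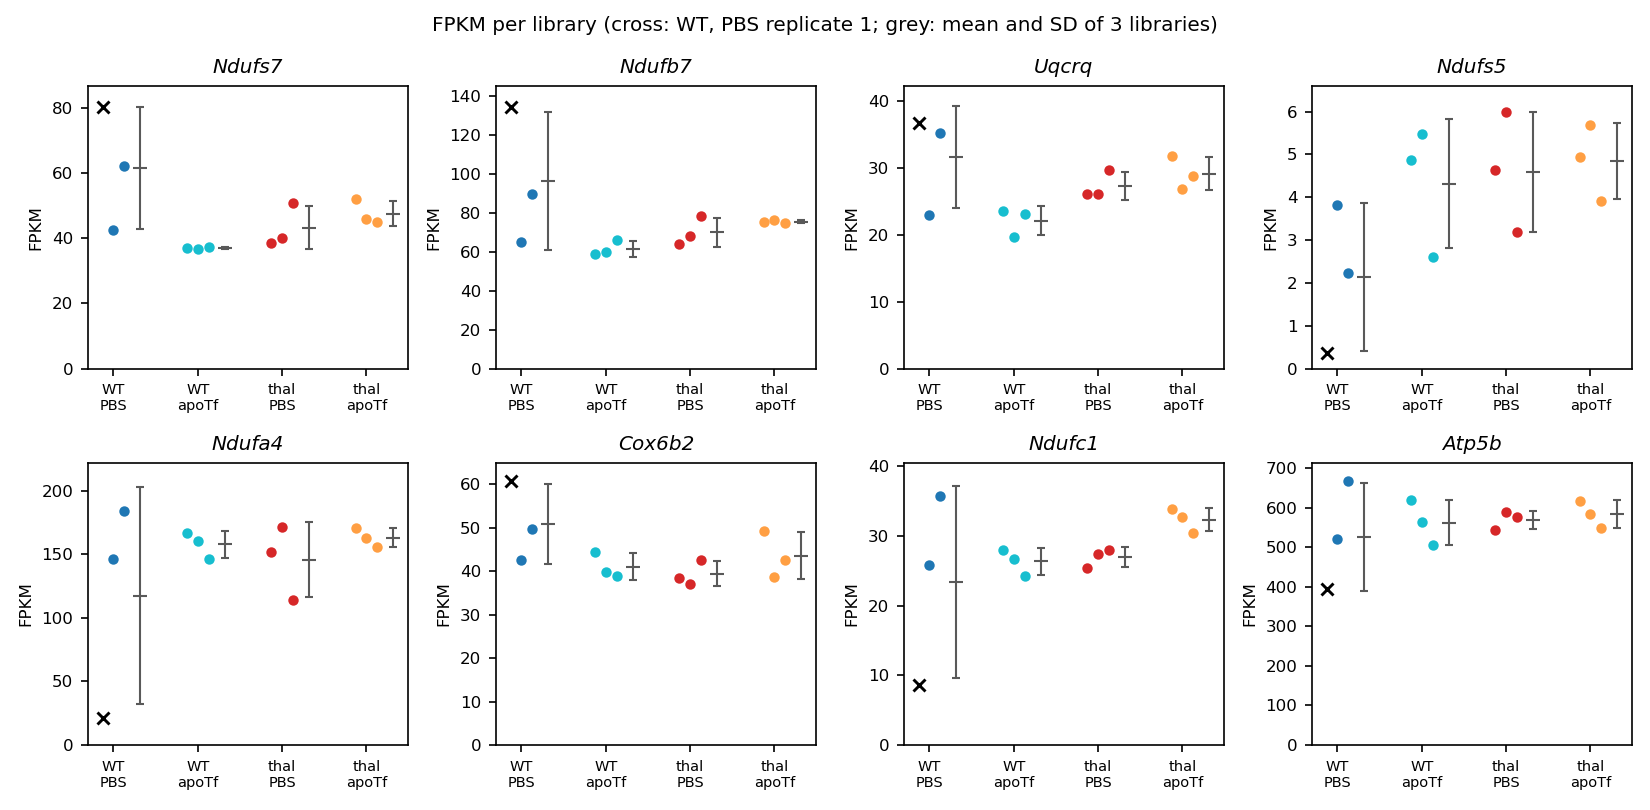
FPKM of 8 members in each library by group, with WT replicate 1 as a cross and the mean and SD of 3 libraries in grey beside the points. Ndufs7 and Ndufb7 are highest and Ndufa4 and Ndufs5 lowest in the crossed library, and without it the groups of WT and β-thalassemic mice given PBS overlap in all 8 genes.

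In the comparison of both genotypes after apoTf, untreated WT mice enter only through the shared spread. No member passed the test by limma (0.0415% of all genes did) and 1 of 75, Uqcrq, had an unadjusted p under 0.05 (1.41% of all genes). Its log2 fold change between apoTf-treated β-thalassemic and apoTf-treated WT Pro-E was 0.39 (SE 0.18, 95% interval 0.0007 to 0.78, adjusted p = 1.00 by limma). Without WT replicate 1 in the shared spread its SE was 0.14. In that fit 5 of 75 members had an unadjusted p under 0.05 by limma (349 of 9650 genes did). With only the groups compared, 8 of 75 did (574 of 9650 genes). No member passed the adjusted threshold in either fit. Members above 0 numbered 59 of 75, with a median of 0.06, against 54.8% of all genes and a median of 0.01. The medians by complex lay between 0.03 in complex II and 0.10 in complex I. In 12 members every β-thalassemic library lay above every WT library, 16% of members against 8.88% of all genes, and none lay below. Of these 12, which include Ndufs7, Ndufb7, Ndufc1, Uqcrq and Atp5d, 9 are among the 25 members with the highest GC content and none is among the 25 with the lowest. The part of base composition in this was not tested. After removal of the trend on GC content without WT replicate 1, 56 of 75 members were above 0, with a median of 0.04, against 49.2% of all genes and a median of −0.002.

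In this comparison libraries of the 2 groups with the same replicate number deviated together, and a fit of these 6 libraries with the replicate number as a block, chosen after the data were seen, changed the call. By limma with the block, 6 of 75 members were higher in apoTf-treated β-thalassemic than in apoTf-treated WT Pro-E and none was lower, 8% of members against 2.21% of all genes. They were Ndufs7, a core iron-sulfur subunit of complex I, Ndufb7 and Ndufc1, which are supernumerary subunits of it, and Uqcrq, Uqcr10 and Uqcr11, small subunits of complex III. Uqcrq was at 23.6, 19.6 and 23.1 FPKM in apoTf-treated WT replicates 1 to 3 and at 31.8, 26.8 and 28.9 FPKM in the apoTf-treated β-thalassemic libraries of the same numbers. Each of these β-thalassemic libraries was above every apoTf-treated WT library in Uqcrq, so any pairing would give this order. The difference was 0.39 on the log2 scale on average (SE 0.044, adjusted p = 0.0237 by limma with the block, 0.0174 to 1.00 over all alternatives). In the other 5 members the difference lay between 0.23 and 0.36, with adjusted p of 0.0281 to 0.0476. With 1 pair left out in turn, 2, 2 and 1 members passed (1.27%, 3.12% and 0.798% of all genes), and Uqcrq was among them each time. With the block and each library's trend on GC content removed, none of the 75 members passed by limma (0.219% of all genes did), 16 had an unadjusted p under 0.05 (1609 of 9577 genes did), and the smallest adjusted p was 0.0529, in Ndufc1. A block over all 12 libraries gave no member past the threshold by limma and 1 of 75 with an unadjusted p under 0.05 (139 of 9650 genes did).

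Between apoTf-treated β-thalassemic and untreated WT Pro-E no member passed by limma (0.0518% of all genes did), and 1, Ndufs5, had an unadjusted p under 0.05 (4.15% of all genes). The median over the members was 0.20 with all libraries and −0.01 without WT replicate 1, against 0.10 and −0.045 over all genes tested. Cox7c, Ndufb4 and Ndufs5, all of which share sequence with other genes, were higher in all 3 libraries than in any WT library, 4% of members against 4.05% of all genes in this direction. The interaction, which is the effect of apoTf in β-thalassemic minus that in WT Pro-E, gave no member past the threshold by limma, as for all genes (0%), and 3 with an unadjusted p under 0.05 (4.90% of all genes), which were Ndufs7, Ndufb7 and Uqcrq. Ndufs7 had the largest difference of effects among the 3, at 0.83 (SE 0.29, adjusted p = 0.764 by limma) and at 0.62 without WT replicate 1. The number of members above 0 was 32 of 75 with all libraries and 69 of 75 without WT replicate 1, while the share of all genes above 0 was 42.1% and 68.6%. All comparisons with untreated WT mice share the same 3 libraries, and those with untreated β-thalassemic mice likewise, so their directions are not independent.

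Iron-sulfur subunits were set apart because transferrin carries iron, and this list was drawn up with the values known. They are Ndufs1, Ndufs7, Ndufs8, Ndufv1 and Ndufv2 of complex I, Sdhb of complex II and the Rieske protein gene Uqcrfs1 of complex III. With all 12 libraries and no block, none of the 7 passed the limma test in any of the 6 comparisons. Ndufs7 passed as lower after apoTf in WT Pro-E when WT replicate 2 was left out, as above. It also passed, as higher, with the block in the comparison of genotypes after apoTf. After apoTf in β-thalassemic Pro-E all 7 were above 0, by 0.01 to 0.15 on the log2 scale, with a median of 0.08 that equals that of the 65 other subunits. In β-thalassemic against WT Pro-E without WT replicate 1 all 7 were below 0, with a median of −0.11, against −0.08 for the other subunits, of which 10 of 65 were above 0. Uqcrfs1 was at 36.5, 69.4 and 86.0 FPKM in WT, 89.2, 78.0 and 69.4 in apoTf-treated WT, 74.0, 80.3 and 74.6 in β-thalassemic and 81.3, 79.3 and 73.2 in apoTf-treated β-thalassemic cells. Outside WT replicate 1 the groups of Uqcrfs1 overlapped throughout. Among the 7 core subunits of the complex I matrix arm the median of the same comparison was −0.11 without WT replicate 1, and among the 28 supernumerary subunits it was −0.10.

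Members are spread over the genome, and Ndufc2, on chromosome 7 from 97400003 to 97407802, was the only member within 10 Mb of Hbb-bs, at a distance of 6.42 Mb. Ndufc2 was at 32.5, 60.0 and 80.0 FPKM in WT, 63.8, 57.4 and 51.7 in apoTf-treated WT, 52.4, 64.5 and 61.5 in β-thalassemic and 72.3, 61.7 and 59.9 in apoTf-treated β-thalassemic cells. WT replicate 1 was the lowest library, and the others overlapped. The log2 fold change of the thalassemic against the WT group was 0.14 (SE 0.26, adjusted p = 0.778 by limma), and −0.22 without WT replicate 1.

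Nuclear respiratory factor 1 (NRF1), GABPA of the ETS family and YY1 are transcription factors known to act at promoters of respiratory chain genes. RefSeq promoters on GRCm38.p6, from 250 bases before to 50 after the start, were matched for 64 of the 75 members and searched on both strands for GCGCANGCG (NRF1, where N is any base), CCGGAAGT (ETS) and AAGATGGCG (YY1). The NRF1 letters were found in 18 of 64 members (28.1%), in 18% of 7214 tested genes and in 7.03% of all 27025 genes with a promoter. ETS letters were found in 5 members (7.81%), against 11.2% of tested and 4.31% of all genes, and YY1 letters in 8 (12.5%), against 4.64% and 1.64%. Such a match is a description of letters. Shown are the promoters of Ndufb4 and Cox6a1, with 3 and 2 stretches of NRF1 letters in capitals (matches that overlap are merged), and of Ndufs7, with its YY1 letters in capitals. In WT replicate 1 Ndufb4 was at 1.98 FPKM and Cox6a1 at 193 FPKM, against 16.3 to 27.7 FPKM and 151 to 220.2 FPKM in the other libraries.
Ndufb4, chr16:37654319-37654618, minus strand: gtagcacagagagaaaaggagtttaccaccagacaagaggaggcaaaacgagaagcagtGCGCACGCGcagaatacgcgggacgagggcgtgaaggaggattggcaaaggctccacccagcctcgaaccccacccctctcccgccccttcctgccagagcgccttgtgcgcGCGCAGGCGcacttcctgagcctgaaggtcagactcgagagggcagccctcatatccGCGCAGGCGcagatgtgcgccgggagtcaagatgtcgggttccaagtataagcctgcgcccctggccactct
Cox6a1, chr5:115348909-115349208, minus strand: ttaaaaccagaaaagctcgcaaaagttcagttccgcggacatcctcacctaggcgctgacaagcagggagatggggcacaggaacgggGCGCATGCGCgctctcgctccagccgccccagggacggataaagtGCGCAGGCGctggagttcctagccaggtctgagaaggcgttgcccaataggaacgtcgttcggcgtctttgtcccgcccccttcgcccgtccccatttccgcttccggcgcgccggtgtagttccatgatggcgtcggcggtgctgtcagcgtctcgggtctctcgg
Ndufs7, chr10:80249199-80249498, plus strand: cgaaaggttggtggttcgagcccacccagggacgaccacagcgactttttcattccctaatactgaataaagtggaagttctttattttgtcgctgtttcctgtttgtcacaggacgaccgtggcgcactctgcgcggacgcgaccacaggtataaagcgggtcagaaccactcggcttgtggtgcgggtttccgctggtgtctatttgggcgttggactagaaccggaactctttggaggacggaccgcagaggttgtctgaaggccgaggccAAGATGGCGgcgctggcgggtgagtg

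Other genes of the pathway were counted from lists of function. With all libraries no gene of any of these lists passed the limma test in any of the 6 comparisons. These were 48 tested assembly factors, 8 electron carriers with the ATP synthase inhibitor, 12 genes of coenzyme Q synthesis, 17 of the TCA cycle, 17 regulators of mitochondrial biogenesis, 75 of the mitochondrial ribosome and 80 of the cytosolic ribosome. For β-thalassemic against WT Pro-E the median log2 fold changes were 0.16 for assembly factors, −0.04 for electron carriers, 0.04 for coenzyme Q synthesis, 0.24 for the TCA cycle, 0.08 for biogenesis regulators, 0.18 for the mitochondrial and 0.09 for the cytosolic ribosome. Without WT replicate 1 each of these medians was below 0, from −0.02 for the mitochondrial ribosome to −0.19 for electron carriers. After apoTf in β-thalassemic Pro-E they were between −0.001 for the TCA cycle and 0.11 for the cytosolic ribosome, with 0.08 for the 75 members.

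A single gene of these lists passed the test without WT replicate 1. Sqrdl encodes sulfide:quinone oxidoreductase, which feeds electrons from sulfide into the coenzyme Q pool. It was at 23.5, 30.8 and 43.1 FPKM in WT, 34.2, 32.9 and 28.7 in apoTf-treated WT, 16.7, 18.4 and 16.2 in β-thalassemic and 25.0, 27.4 and 22.9 in apoTf-treated β-thalassemic cells. All 3 β-thalassemic libraries lay below every other library, and the apoTf-treated β-thalassemic libraries lay between them and every WT library other than WT replicate 1. Relative to WT the log2 fold change of Sqrdl in β-thalassemic Pro-E was −0.86 (SE 0.19, adjusted p = 0.144 by limma) with all libraries and −1.07 (SE 0.14, adjusted p = 0.00533 by limma) without WT replicate 1, when 0.321% of all genes passed. After apoTf in β-thalassemic Pro-E it was 0.54 (SE 0.19, adjusted p = 1.00 by limma). With WT replicate 1 left out of the shared spread, the SE of this difference was 0.13 (adjusted p = 0.304 by limma). This gene is not a member and was named for its call.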

How the data were processed

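The 12 libraries of polyadenylated RNA from sorted Pro-E were aligned by the authors to mm10 with STAR, keeping single alignments, and reads over exons were counted on both strands per gene. The methods of the study name HOMER and edgeR for FPKM, the submitters' processing notes also featureCounts, and which tool made the underlying counts is not given in the sources used here, nor are read length and gene models. The authors deposited the values as FPKM per gene and library, the only values used, since counts were not analysed here. They also deposited fold changes and adjusted p values of their own comparisons, which were not used. Tool versions are not given in the sources used here.

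Genes that reached 1 FPKM in 3 or more of the 12 libraries were fitted with limma 3.58.1 (lmFit, eBayes with a trend) in R 4.3.3 on log2(FPKM + 0.5), with 4 group means, 1 shared spread per gene and two-sided tests. The pseudocount of 0.5 understates changes of low genes. Benjamini-Hochberg adjustment ran over all genes within a comparison, with a threshold of 0.05. In simulated data for β-thalassemic against WT cells (9650 genes, 200 changed), a log2 change of 1 was recovered in 123 of 200 genes, with 8 false calls. A log2 change of 0.5 was recovered in 1 of 200, with 0 false calls. The spread of each gene was taken from all 12 libraries. Since the labels do not say that libraries of a group are independent beyond pooling 2–3 mice, p values measure the spread between these libraries. Library totals were read from the steps between FPKM values and are approximate, so no counting interval is given.

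GENCODE M21 (GRCm38) gave positions, GC content and 50-base stretches shared between genes. RefSeq gave promoters, and the motif letters are shortened forms chosen after longer ones had been searched. A complex median is the median log2 fold change of its members, a description without a test. Members and lists were chosen with earlier results of these data known. Named members were those past a threshold, the highest and lowest, the most and least variable and the most changed of each complex, isoform pairs, neighbours of Hbb-bs and, outside this rule, genes named as chosen after their values were seen. Alternatives were pseudocounts of 0.1 and 1, no filter, a filter of 5 FPKM, median-ratio and quantile scaling, no trend, only the groups compared, a replicate block, removal of the GC trend and each library left out. Added after the data were seen were removal of the GC trend without WT replicate 1 and, for genotype after apoTf, a block by replicate number over those 6 libraries alone. Replicate numbers come from the titles, which give no shared batch, and deviations from the group means correlated over all genes between apoTf-treated WT and β-thalassemic libraries of the same number (0.51, 0.25 and 0.46). In no other pair of groups were all 3 correlations over 0.1.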

Additional observations from a re-analysis of the deposited data

How the results depend on the processing

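Across the alternatives, no member passed the test in any of the 6 comparisons, with the exception of genotype after apoTf, below, and of apoTf in WT Pro-E, where the number of members called ranged from 0 to 5 over the fits that left out 1 library each. The 5 appeared without WT replicate 2, when genes called in all were 449, against 0 with all libraries. In β-thalassemic against WT cells, 25 genes of all kinds were called, and from 6 to 90 with 1 library left out and from 8 to 68 under the other alternatives. In the other comparisons the counts over all genes were 3 (1 to 7 under any alternative) for apoTf in β-thalassemic mice, 5 (1 to 9) for apoTf-treated β-thalassemic against untreated WT, 4 (2 to 7, other than in the paired fits) for genotype after apoTf and 0 (0 to 3) for the interaction, and for apoTf in WT 0 to 3 apart from the 449. Quantile normalization moved the median of all genes between apoTf-treated β-thalassemic and untreated WT cells from 0.10 to −0.001. Of the complex medians, those of complexes I, IV and V in the interaction moved by more than the spread between libraries of a group (the pooled SD of the complex's mean log2 level in the groups compared). With 1 library left out they ranged from −0.24 to 0.18 in complex I, from −0.39 to 0.20 in complex IV and from −0.33 to 0.11 in complex V, the upper end being the fit without WT replicate 1. The median of complex IV ranged from −0.09 to 0.53 in thalassemic against WT cells and from −0.01 to 0.59 in apoTf-treated thalassemic against untreated WT cells. In thalassemic against WT cells the leave-one-out ranges crossed 0 for Uqcrb (−0.045 to 1.16), Ndufa4 (−0.19 to 1.34) and Atp5c1 (−0.043 to 0.78), and after apoTf in β-thalassemic Pro-E for Cox7c (−0.12 to 0.67), which was negative without β-thalassemic replicate 3. Ndufa4 was at −0.14 with the GC trend removed without WT replicate 1, an alternative chosen after the data were seen, and Ndufa13 after apoTf in WT Pro-E was at 0.048 with the GC trend removed from all libraries. The cause of these changes was not tested. Over all genes, deviations of libraries with the same replicate number correlated at −0.39 to 0.51 in 18 pairs, 6 of them over 0.1. For apoTf-treated WT and β-thalassemic cells these were 0.51, 0.25 and 0.46. The others over 0.1 were all of replicate 2. They joined untreated WT to untreated β-thalassemic (0.37), apoTf-treated β-thalassemic (0.21) and apoTf-treated WT (0.12) libraries. For genotype after apoTf the replicate block over those 6 libraries called 6 members and 213 genes in all, 2, 2 and 1 members with pair 1, 2 or 3 left out (123, 301 and 77 genes), and 0 members and 21 genes with the GC trend removed. A replicate block over all 12 libraries called 0 members in each comparison by limma. At an unadjusted p under 0.05 there were 0 to 6 members, beside 133 to 929 of 9650 genes. Genes of all kinds called were 13 in place of 25 by genotype in untreated mice and 1 in place of 3 for apoTf in β-thalassemic mice. They were 4 in place of 5 for apoTf-treated β-thalassemic against WT cells, and as many as without the block in the others. In simulated data for β-thalassemic against WT cells with all 12 libraries, a log2 change of 0.5 was seldom recovered. The other comparisons and the fits without WT replicate 1 were not simulated. With 3 libraries per group, the absence of a call does not show equal levels.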
